A study of Mus musculus with 10 samples.

Results

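The 33 genes described here are markers and regulators of haematopoietic stem and progenitor cells, read from expression arrays of mouse acute myeloid leukaemia. They were taken from a list of gene names, with no threshold on their values, and each was represented by the probe set with the highest mean over all arrays among those that name that gene alone. On this basis 32 of the 33 were measured, out of 20564 genes in all. Zfpm1, which encodes a cofactor of GATA factors, had only probe sets that name several genes and has no value here. The arrays held 3 Eed-null, 4 Ezh2-null and 3 WT leukaemias, all on the C57B/6 background and all driven by the fusion oncogene MLL-AF9. The fusion was carried by a retrovirus that also encodes GFP. Recipient mice received 600 cGy of irradiation and 100000 cells grown from replated leukaemic colonies. Each group, WT included, was given pIpC 2 to 3 weeks after the transplant to switch on Cre, and YFP marked the cells in which Cre had acted. Viable GFP+ YFP+ bone marrow cells were sorted, so the host's own marrow cells, which lack GFP, were gated out. The labels call the samples biological replicates but do not say which donors or colonies they came from, and they do not name the promoter that drives Cre. The p-values therefore measure the spread between these samples.

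Haematopoietic stem cells keep themselves in a multipotent state through a network of transcription factors that bind together at shared enhancers, and through receptors that hold them in the marrow niche. As progenitors commit to the granulocyte and monocyte lineages, much of this network is shut down. Leukaemias started by MLL fusions resemble committed myeloid progenitors that have taken back part of the stem cell programme, and the level of Mecom (also called Evi1) is one feature by which such leukaemias differ. Eed and Ezh2 are subunits of Polycomb repressive complex 2, which places the repressive methyl mark on lysine 27 of histone H3. Ezh1 can stand in for the catalytic subunit Ezh2, whereas the complex does not work without Eed.

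All values below are log2 intensities of the probe set, and all differences are differences of group means on that scale. A probe set's intensity depends on its own probes, so levels of different genes are not set against each other. The median over genes lay between 7.42 and 7.49 on every array, and within-group correlations over genes were 0.956 to 0.989. Eed itself read 8.69, 8.34 and 8.67 in Eed-null, 10.79, 10.24, 10.40 and 10.30 in Ezh2-null and 10.52, 10.20 and 10.65 in WT leukaemias. The difference between Eed-null and WT was -1.89 (SE 0.21, limma adjusted p = 0.00797). Ezh2 read 9.60, 9.71 and 9.49 in Eed-null, 9.19, 9.21, 9.36 and 8.91 in Ezh2-null and 10.25, 9.35 and 10.44 in WT leukaemias, a difference of -0.85 (SE 0.25) between Ezh2-null and WT that did not pass the test (limma adjusted p = 1.0). WT replicate 2 lay among the Ezh2-null values for this gene, and leaving it out brought no stem or progenitor gene past the test. Where these probe sets lie relative to the deleted exons is not given in the sources used here. All 22 granulocyte genes of the marker list lay above the array median on every array. Eed-null replicate 1 and WT replicate 3 stood apart from their groups for several of the genes described here, and for those genes differences without them are given too.

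None of the 32 measured genes passed the test in any comparison. With limma and an adjusted p under 0.05, 0 of 32 were called in Eed-null against WT, where 27 of all 20564 genes were (0.131%). In Ezh2-null against WT 0 of 32 were called, beside 5 of all genes (0.0243%), and in Eed-null against Ezh2-null 0 of 32, beside 16 of all genes (0.0778%). At an unadjusted p under 0.05, 4 of the 32 stood out in Eed-null against WT (12.5%, against 10.4% of all genes). These were Bcl11a, Eng and Ikzf1 with higher values in Eed-null and Cd48 with lower values. In Ezh2-null against WT the number was 0 of 32, against 3.74% of all genes. Between Eed-null and Ezh2-null it was 5 of 32 (15.6%, against 9.18% of all genes), with Gata2, Gfi1b, Ikzf1 and Tie1 higher and Mycn lower in Eed-null. Against WT the share of stem and progenitor genes at this looser threshold was thus close to the background for Eed-null and below it for Ezh2-null. Both null groups are set against the same 3 WT arrays, so the 2 comparisons with WT are not independent of each other.

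All Eed-null values lay outside the WT values for 7 of 32 genes (21.9%, against 12.8% of all genes). Erg, Ptk7, Eng, Bcl11a and Ikzf1 were above WT in every Eed-null leukaemia, and Cd48 and Fgd5 were below, with nearest values for Fgd5 that both round to 4.46. In Ezh2-null against WT only Tie1 did not overlap, with lower values in Ezh2-null (3.12%, against 5.0% of all genes). In Eed-null against Ezh2-null Gata2, Gfi1b, Tie1 and Ikzf1 did not overlap, all higher in Eed-null (4 of 32 or 12.5%, against 10.5% of all genes). The median difference over the 32 genes was 0.16 in Eed-null against WT, where all genes had a median of 0.03, and 25 of 32 differences were positive (78.1%, against 54.8% of all genes). For Ezh2-null against WT the median was -0.003, beside -0.02 for all genes, with 16 of 32 positive (against 44.7% of all genes). For Eed-null against Ezh2-null it was 0.12, beside 0.04, with 22 of 32 positive (68.8%, against 58.0%).

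**Figure D1:**
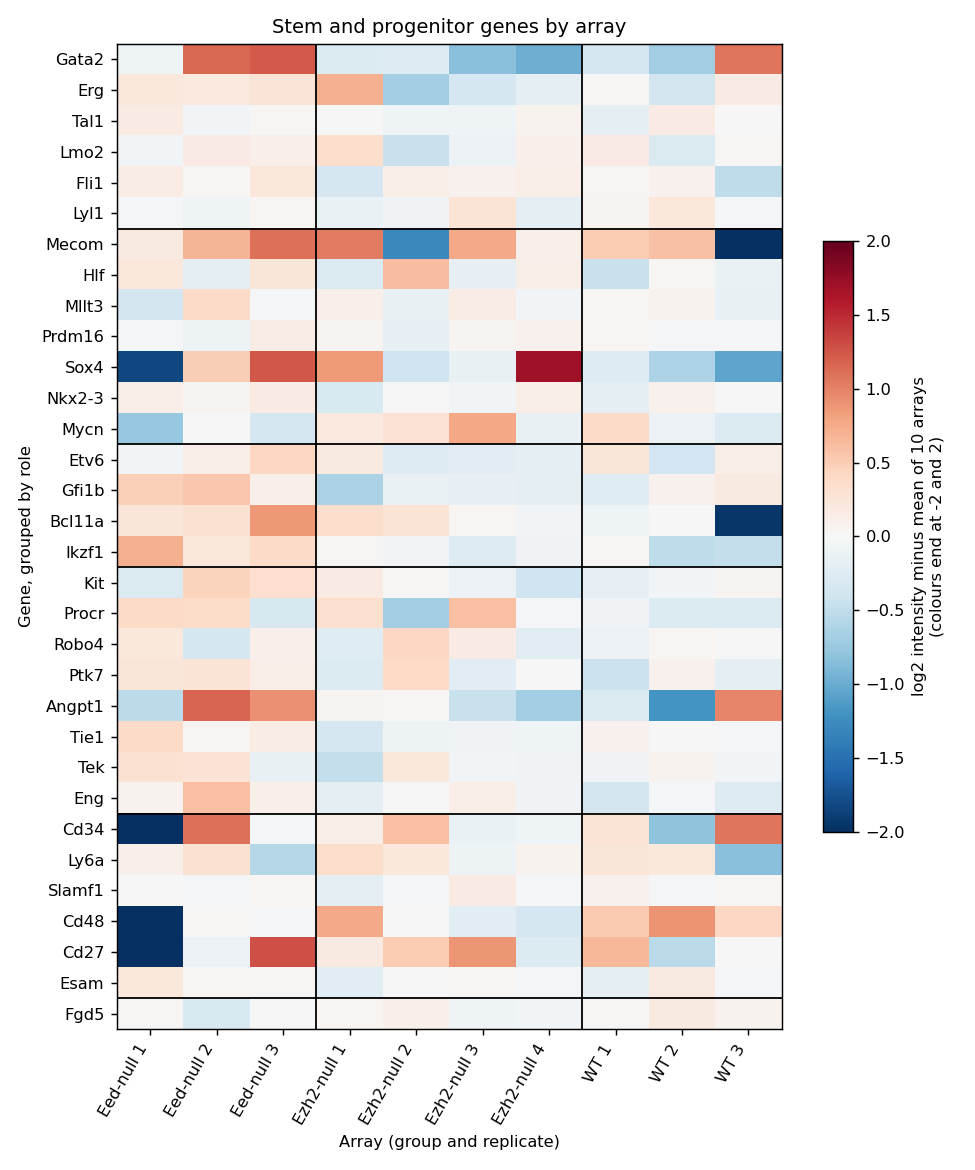
Each row is 1 of the 32 measured stem and progenitor genes and each column 1 array, with colour giving the log2 intensity relative to the gene's mean over all 10 arrays. The deep low cells stand in WT replicate 3 for Mecom (6.01) and Bcl11a (7.33) and in Eed-null replicate 1 for Cd27 (5.35), Sox4 (6.70), Cd34 (6.31) and Cd48 (8.43).

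**Figure D2:**
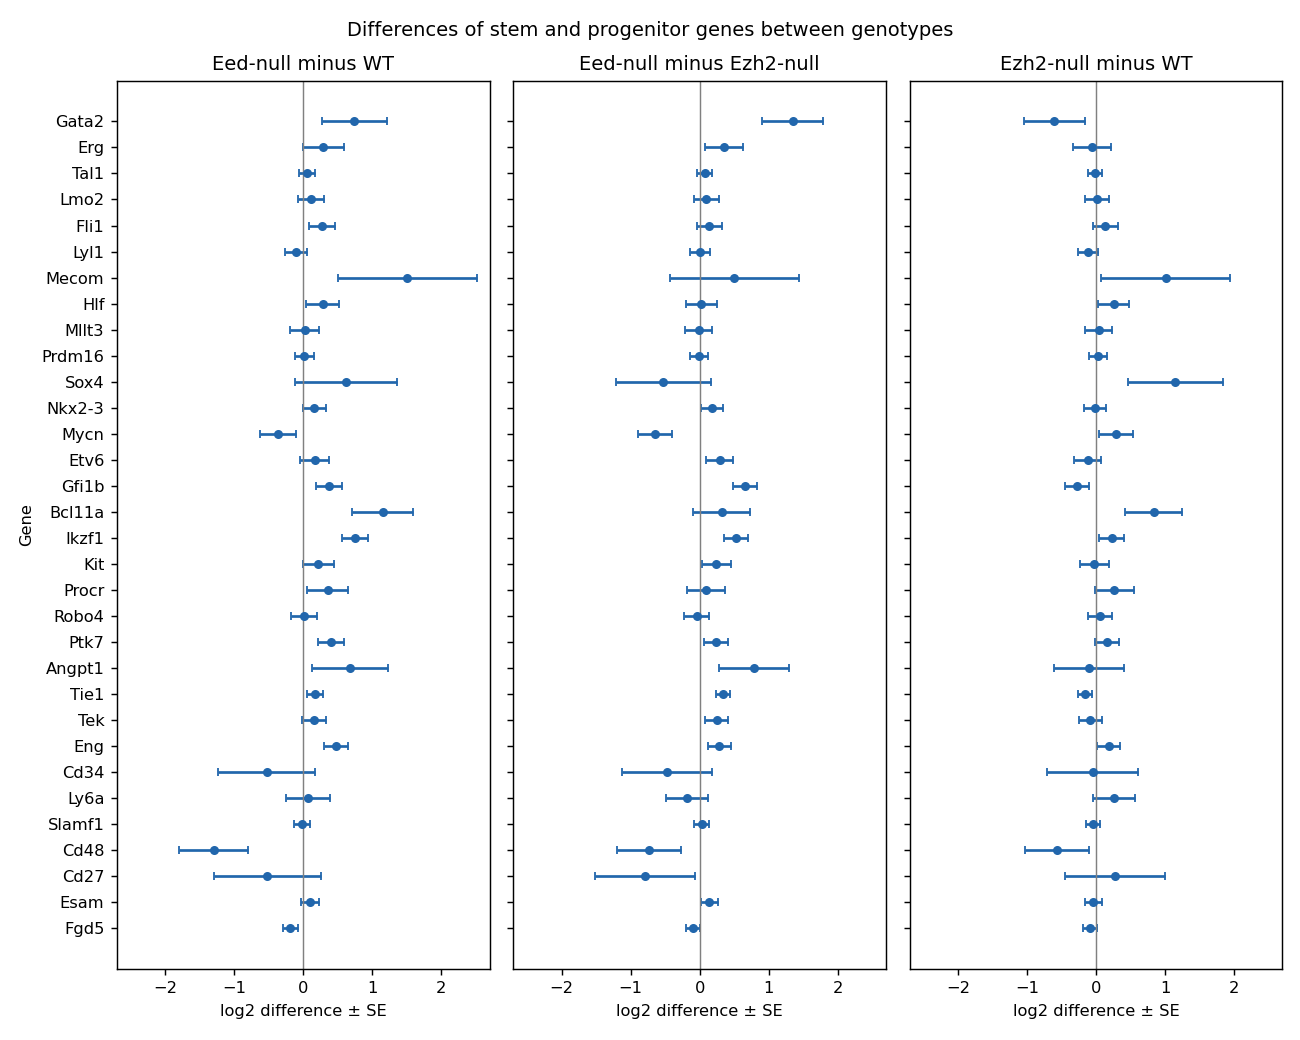
Points give the log2 difference of group means for each of the 32 genes in the 3 comparisons, with bars of 1 standard error from limma. Mecom carries the widest bars (SE 1.00 for Eed-null against WT), and Ikzf1 lies at 0.75 with a bar of 0.19.

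The first group holds 6 DNA-binding or bridging proteins of the set of stem cell factors known as the heptad, which occupy regulatory DNA together in blood progenitors. Lmo2, the bridging protein, lay between 12.24 and 13.05 on all arrays, and Lyl1 (11.23 to 11.70) and Fli1 (10.86 to 11.59) were likewise well above the array median on every array. Tal1, the helix-loop-helix factor that starts blood formation in the embryo, lay below the array median on all 10 arrays (5.20 to 5.55). Gata2, a zinc finger factor required for stem cell survival and expansion, varied most in this group. It read 8.80, 10.02 and 10.11 in Eed-null, 8.61, 8.62, 8.04 and 7.90 in Ezh2-null and 8.55, 8.19 and 9.95 in WT leukaemias. All 3 Eed-null leukaemias lay above all 4 Ezh2-null ones, while WT replicate 3 sat among the higher Eed-null values and the other WT leukaemias among the Ezh2-null values. Eed-null exceeded Ezh2-null by 1.35 (SE 0.44), or 2.54-fold, which did not pass the test after adjustment (limma adjusted p = 0.439). Against WT the differences were 0.74 (SE 0.47) for Eed-null and -0.61 (SE 0.44) for Ezh2-null. Without WT replicate 3 these were 1.27 and -0.08, and without Eed-null replicate 1 the Eed-null difference from WT was 1.16.

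A second Gata2 probe set gave the same order of groups with smaller distances. It read 8.23, 9.09 and 8.98 in Eed-null, 8.32, 8.20, 7.90 and 8.01 in Ezh2-null and 8.18, 8.14 and 8.90 in WT leukaemias, and Eed-null replicate 1 fell within the Ezh2-null range while replicates 2 and 3 stood above it. WT replicate 3 was again the highest WT array. The Eed-null excess over Ezh2-null was 0.66 (SE 0.26) in this probe set.

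Erg, an ETS factor needed to maintain stem cells, read 11.81, 11.78 and 11.84 in Eed-null, 12.29, 10.90, 11.24 and 11.41 in Ezh2-null and 11.61, 11.21 and 11.74 in WT leukaemias. The 3 Eed-null values lay close together and just above the highest WT value, whereas the Ezh2-null values spread on both sides of both groups. The Eed-null difference from WT was 0.29 (SE 0.30), and that of Ezh2-null was -0.06 (SE 0.28). A second Erg probe set gave the opposite sign for Eed-null against WT, at -0.35. For Fli1, Lyl1, Lmo2 and Tal1 no difference exceeded 0.27 in size in the probe sets used. A second Fli1 probe set gave differences from WT of 0.327 for Eed-null and 0.305 for Ezh2-null.

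The second group holds transcriptional regulators tied to self-renewal. Mecom, a zinc finger factor required by long-term stem cells, varied more than any other of the 32 genes. It read 9.86, 10.35 and 10.78 in Eed-null, 10.72, 8.39, 10.43 and 9.77 in Ezh2-null and 10.19, 10.26 and 6.01 in WT leukaemias. WT replicate 3 lay 4.19 below the nearest WT value, which is 18.2-fold in intensity, and Ezh2-null replicate 2 lay 1.38 below the nearest of its group (2.6-fold). The group means were 10.33 ± 0.46 in Eed-null, 9.83 ± 1.04 in Ezh2-null and 8.82 ± 2.43 in WT leukaemias (SD, n = 3, 4 and 3). The pooled SD of 1.49 lay at the 99.9th percentile of all genes. The differences from WT, 1.51 (SE 1.00) for Eed-null and 1.01 (SE 0.94) for Ezh2-null, did not pass the test (limma adjusted p = 0.639 and 1.0). Without WT replicate 3 they were 0.10 for Eed-null and -0.40 for Ezh2-null.

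The other Mecom probe sets were dimmer. The brighter of them read 7.38, 8.01 and 8.54 in Eed-null, 8.07, 7.35, 7.70 and 7.14 in Ezh2-null and 8.45, 8.08 and 6.29 in WT leukaemias, and here too WT replicate 3 was the lowest of all 10 arrays. The dimmest stayed between 5.23 and 5.80 and did not separate WT replicate 3 from the rest, at 5.69.

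Mecom has 2 start sites far apart, and the distant one gives the longer protein with a PR domain. Both 250-base stretches upstream of these starts are shown because Mecom carried the widest spread among the arrays. They are RefSeq sequences of GRCm38.p6 on the minus strand, printed 5′ to 3′ along the gene, at chr3:30509760-30510009 for the distant start and chr3:30013205-30013454 for the nearer one. Capitals mark GATA motifs (AGATAA or TGATAA), ETS motifs (CCGGAA or AGGAAG) and E-boxes (CAGCTG or CAGATG), found on either strand.
Mecom distant start: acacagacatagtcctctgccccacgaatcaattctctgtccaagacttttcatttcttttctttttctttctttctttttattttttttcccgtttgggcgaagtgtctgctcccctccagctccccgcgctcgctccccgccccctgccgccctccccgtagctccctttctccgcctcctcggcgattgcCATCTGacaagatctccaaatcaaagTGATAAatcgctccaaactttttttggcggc
Mecom nearer start: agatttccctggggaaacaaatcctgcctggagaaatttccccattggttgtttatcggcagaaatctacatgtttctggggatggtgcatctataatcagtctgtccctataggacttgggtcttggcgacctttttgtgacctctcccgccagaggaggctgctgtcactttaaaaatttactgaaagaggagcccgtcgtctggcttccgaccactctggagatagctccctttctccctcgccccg
The distant window held 1 GATA motif and 1 E-box, with a ratio of observed to expected CpG of 1.05. The nearer window held none of the motifs, with a ratio of 0.51. Which transcript the Mecom probe sets read was not worked out here.

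**Figure D3:**
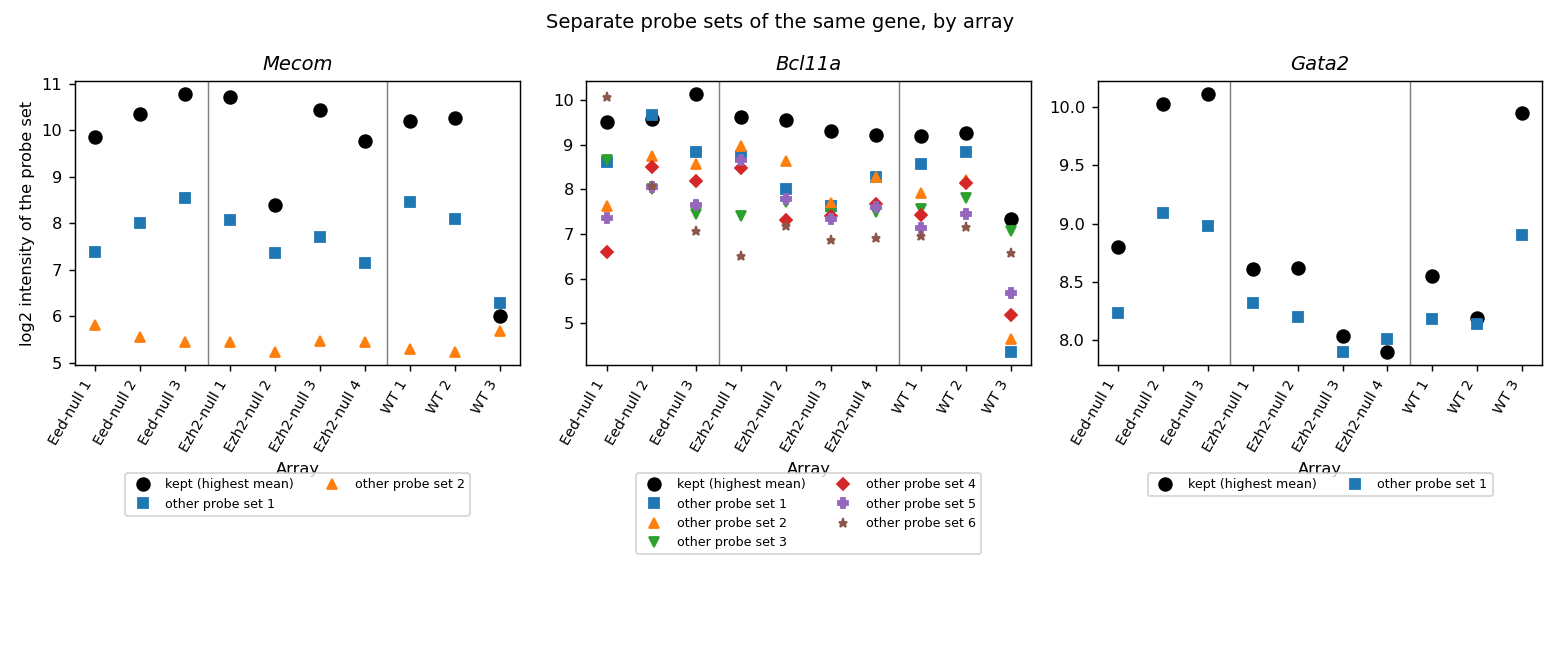
Log2 intensity of every probe set of Mecom, Bcl11a and Gata2 on each array, Eed-null at the left, then Ezh2-null and WT, with filled black circles for the probe set used. WT replicate 3 is lowest in the used Mecom probe set (6.01) and in the next one (6.29), while the third Mecom probe set (5.69) does not follow.

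Sox4, an HMG-box factor that cooperates with Evi1 in mouse myeloid leukaemia, read 6.70, 9.02 and 9.77 in Eed-null, 9.38, 8.13, 8.38 and 10.21 in Ezh2-null and 8.27, 7.90 and 7.46 in WT leukaemias. All 4 Ezh2-null leukaemias but replicate 2 lay above every WT value, and Eed-null replicate 1 was the lowest array of all. The Ezh2-null difference from WT was 1.15 (SE 0.69) and the Eed-null one 0.62 (SE 0.73), neither past the test (limma adjusted p = 1.0 and 0.812). The Eed-null difference was 1.52 without Eed-null replicate 1 and -0.02 without Eed-null replicate 3. The 7 further Sox4 probe sets differed among themselves. One of them gave 1.82 (SE 0.67) for Ezh2-null against WT and -1.51 (SE 0.67) for Eed-null against Ezh2-null (limma adjusted p = 1.0 and 0.527). Mycn, the Myc relative used by stem cells beside Myc, read 11.69, 12.46 and 12.09 in Eed-null, 12.64, 12.74, 13.22 and 12.29 in Ezh2-null and 12.83, 12.33 and 12.17 in WT leukaemias. The difference between Eed-null and Ezh2-null was -0.65 (SE 0.25) with overlapping values (limma adjusted p = 0.491). In the probe sets used, Hlf, Prdm16, Mllt3 and Nkx2-3 had differences of at most 0.28 in size between any groups. Other probe sets gave larger ones, up to 1.04 for Mllt3 and down to -0.62 for Prdm16 in Eed-null against WT, and down to -0.82 for Hlf in Eed-null against Ezh2-null (limma adjusted p = 0.523, 0.69 and 0.607). That Mllt3 probe set read 6.95 in Eed-null replicate 1 and at most 4.66 on the other arrays. That Hlf probe set read 7.14 in Ezh2-null replicate 2 and at most 5.18 on the other arrays. Hlf (6.95 to 8.01 over the 10 arrays) and Prdm16 (7.54 to 7.85) encode factors that mark and maintain long-term stem cells. Nkx2-3, a homeobox gene of blood and spleen, lay at 8.09 to 8.57 and Mllt3 at 8.44 to 9.19. Mllt3 is the mouse gene of the fusion partner Af9, and whether its probe sets also read the fusion transcript was not tested.

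The third group holds factors that steer lineage choice. Ikzf1, the Ikaros zinc finger protein that primes progenitors for lymphoid fate, read 11.82, 11.34 and 11.49 in Eed-null, 11.14, 11.06, 10.85 and 11.04 in Ezh2-null and 11.15, 10.60 and 10.64 in WT leukaemias. All Eed-null values lay above all values of the other groups. The Eed-null difference from WT, 0.75 (SE 0.19) or 1.69-fold, had the smallest adjusted p of the 32 genes and did not pass (limma adjusted p = 0.229). Against Ezh2-null it was 0.53 (SE 0.18, limma adjusted p = 0.449), and Ezh2-null against WT gave 0.23 (SE 0.18). A second probe set read 10.95, 10.72 and 10.89 in Eed-null, 10.72, 10.69, 10.48 and 10.61 in Ezh2-null and 10.55, 10.40 and 10.37 in WT leukaemias, and the Eed-null difference from WT was smaller there, at 0.41 (SE 0.15). Of the lymphoid marker lists, the B cell list had a mean of 6.91 to 7.03 in Eed-null, 6.65 to 6.85 in Ezh2-null and 6.73 to 6.83 in WT leukaemias, with all Eed-null arrays above all others. Part of the mean of Eed-null replicate 2 came from Cd79b alone. Cd79b read 7.49, 9.63 and 8.33 in Eed-null leukaemias and at most 8.20 in the other groups. The T and NK cell list had a mean of 6.69 to 6.73 in Eed-null, 6.52 to 6.75 in Ezh2-null and 6.54 to 6.62 in WT leukaemias. Of these lists 4 of 9 and 6 of 10 genes lay below the array median on every array. The defining markers Ms4a1 and Cd3e read at most 5.04 and 6.49 on any array. Other genes of these lists lay above the array median on every array. They were Cd79b (7.49 to 9.63) and Pax5 (7.51 to 8.29) for B cells and Nkg7 (8.57 to 10.31) for T and NK cells. The part of these lists in the Ikzf1, Bcl11a and Cd27 values was not tested.

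The Ikzf1 upstream windows are shown because this gene had the smallest adjusted p, and because its 2 starts differ in base composition. They are RefSeq sequences of GRCm38.p6 on the plus strand, with the same motifs in capitals, at chr11:11685675-11685924 and chr11:11689927-11690176.
Ikzf1 upstream start: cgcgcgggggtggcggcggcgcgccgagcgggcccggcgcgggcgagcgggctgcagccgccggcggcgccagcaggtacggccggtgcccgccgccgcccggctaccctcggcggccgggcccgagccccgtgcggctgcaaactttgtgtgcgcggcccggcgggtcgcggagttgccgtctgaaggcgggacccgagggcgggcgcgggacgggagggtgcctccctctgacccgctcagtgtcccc
Ikzf1 downstream start: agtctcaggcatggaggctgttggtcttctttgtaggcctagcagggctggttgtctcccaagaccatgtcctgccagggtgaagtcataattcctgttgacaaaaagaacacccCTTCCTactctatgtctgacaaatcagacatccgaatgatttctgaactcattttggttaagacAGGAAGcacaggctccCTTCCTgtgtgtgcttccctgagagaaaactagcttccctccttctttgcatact
The upstream window was 82.0% G and C and held 44 CpG dinucleotides and none of the motifs. The downstream window held 1 CpG and 3 ETS motifs.

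Over all the stem and progenitor genes, 28 of the 33 had an entry in the promoter table, with 36 windows of 250 bases. A GATA motif occurred in 13.9% of these windows, against 16.6% of all 32851 windows. ETS motifs occurred in 36.1%, against 38.2%, and E-boxes in 25.0%, against 25.5%. The ratio of observed to expected CpG exceeded 0.6 in 47.2% of the windows, against 34.0% of all. These shares describe the letters of the windows and carry no test. Angpt1, Esam, Fli1, Lmo2 and Ly6a had no entry.

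Bcl11a, a repressor needed for lymphoid development and for normal stem cell function, read 9.52, 9.58 and 10.14 in Eed-null, 9.63, 9.55, 9.32 and 9.22 in Ezh2-null and 9.19, 9.27 and 7.33 in WT leukaemias. Every Eed-null value lay above every WT value, and WT replicate 3 was 1.86 below the nearest WT leukaemia (3.6-fold). The Eed-null difference from WT was 1.15 (SE 0.44), or 2.22-fold (limma adjusted p = 0.413), and that of Ezh2-null was 0.84 (SE 0.41). Without WT replicate 3 these were 0.52 and 0.20. Of 6 further Bcl11a probe sets, 5 also had WT replicate 3 as the lowest of all arrays, down to 4.36 in the lowest. Gfi1b, a repressor that restrains stem cell cycling and is required for megakaryocytes and erythroid cells, read 7.48, 7.54 and 7.10 in Eed-null, 6.36, 6.86, 6.83 and 6.81 in Ezh2-null and 6.75, 7.08 and 7.18 in WT leukaemias. All Eed-null values lay above all Ezh2-null values, and the WT range overlapped both. The Eed-null excess over Ezh2-null was 0.66 (SE 0.18), or 1.58-fold (limma adjusted p = 0.325). The megakaryocyte marker list had a mean of 6.81 to 7.06 in Eed-null, 6.61 to 6.76 in Ezh2-null and 6.51 to 6.79 in WT leukaemias, and its part in the Gfi1b values was not tested. Etv6, an ETS repressor needed by adult stem cells, lay at 10.71 to 11.51 and differed by at most 0.29 in any comparison.

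The fourth group holds receptors and a ligand. Kit, the receptor for stem cell factor, read 8.12, 8.86 and 8.74 in Eed-null, 8.57, 8.44, 8.29 and 8.02 in Ezh2-null and 8.24, 8.36 and 8.47 in WT leukaemias. The groups overlapped throughout, with differences from WT of 0.22 (SE 0.22) for Eed-null and -0.03 (SE 0.21) for Ezh2-null. Without Eed-null replicate 1 the Eed-null difference was 0.44. Angpt1, the ligand of Tek that is linked to stem cell quiescence, read 7.59, 9.28 and 9.04 in Eed-null, 8.18, 8.14, 7.67 and 7.43 in Ezh2-null and 7.84, 6.93 and 9.10 in WT leukaemias. Replicates 2 and 3 of Eed-null and replicate 3 of WT stood above the rest, and Eed-null differed from Ezh2-null by 0.79 (SE 0.51) and from WT by 0.68 (SE 0.55). Without Eed-null replicate 1 these were 1.31 and 1.20. The difference from WT was 0.17 without WT replicate 2, 1.25 without WT replicate 3 and 1.77 without both Eed-null replicate 1 and WT replicate 3 (limma adjusted p = 0.132 for the last). A second Angpt1 probe set gave 1.51 (SE 0.51) for Eed-null against Ezh2-null and -0.89 (SE 0.51) for Ezh2-null against WT (limma adjusted p = 0.42 and 1.0). Eng, the endoglin co-receptor for TGF-beta family ligands, read 7.64, 8.17 and 7.68 in Eed-null, 7.40, 7.56, 7.71 and 7.51 in Ezh2-null and 7.21, 7.54 and 7.32 in WT leukaemias. Every Eed-null value was above every WT value, by 0.47 (SE 0.18) between the means (limma adjusted p = 0.405). Of its other probe sets, one gave 0.71 and another 0.03 for the same difference.

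Tie1, an endothelial receptor that modulates Tek signalling, was dim, below the array median on every array. It read 5.75, 5.41 and 5.52 in Eed-null, 5.04, 5.27, 5.30 and 5.28 in Ezh2-null and 5.46, 5.37 and 5.33 in WT leukaemias. Both the Eed-null and the WT values lay wholly above the Ezh2-null values, with an Eed-null excess over Ezh2-null of 0.34 (SE 0.11, limma adjusted p = 0.427). Procr, the endothelial protein C receptor used to enrich stem cells, read 7.27, 7.25 and 6.57 in Eed-null, 7.21, 6.20, 7.49 and 6.85 in Ezh2-null and 6.82, 6.61 and 6.61 in WT leukaemias, and its groups overlapped. Tek, the angiopoietin receptor (4.74 to 5.52), Robo4, a guidance receptor used to enrich stem cells (4.53 to 5.30), and Ptk7, a pseudokinase of Wnt signalling (6.01 to 6.84), also lay below the array median on all arrays. Ptk7 was higher in every Eed-null leukaemia than in any WT one, by 0.40 (SE 0.19) between the means. In Eed-null against WT all 8 genes of the group had positive differences, with a median of 0.28 and a range of 0.01 to 0.68, none past the test. In Ezh2-null against WT 4 of 8 were positive, with a median of 0.02.

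Several of these receptors are shared with endothelium. The defining endothelial genes Cdh5 and Kdr lay between 5.11 and 5.94 on all arrays, and the mean of the endothelial and stromal list was 6.94 to 7.01 in Eed-null, 6.77 to 6.91 in Ezh2-null and 6.80 to 7.03 in WT leukaemias. Of that list, 9 of 14 genes lay below the array median on every array. Pecam1 (9.46 to 10.35) and Pdgfrb (8.32 to 9.34) lay above it on every array. The part of this list in the receptor values was not tested.

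**Figure D4:**
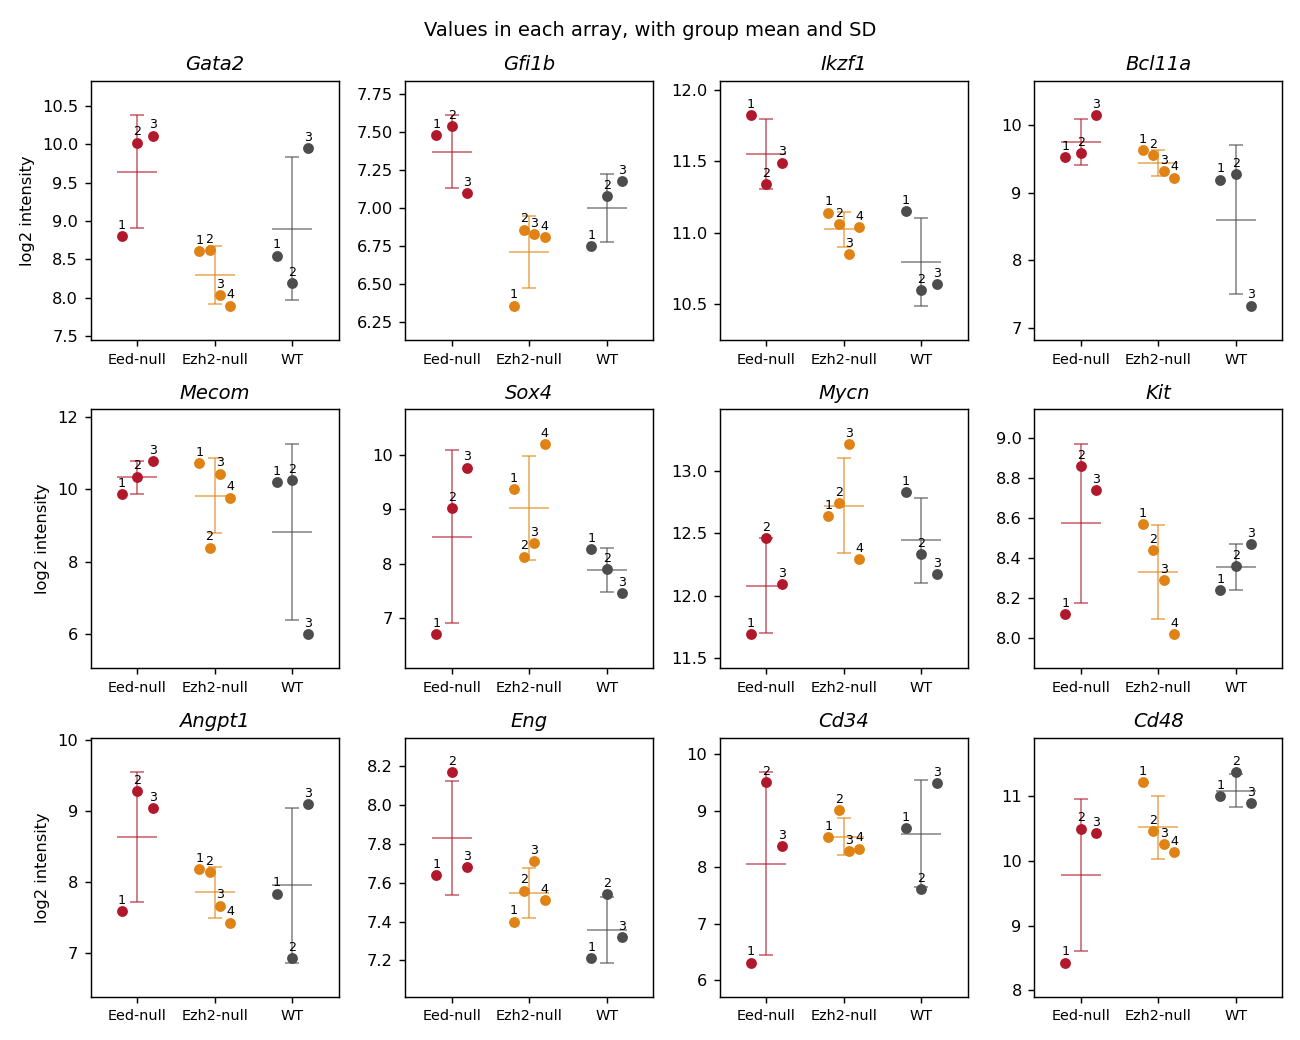
Log2 intensities of named genes, 1 point per array, with Eed-null, Ezh2-null and WT leukaemias from left to right and the group mean and SD drawn as a bar and the replicate number above each point. All Eed-null points lie above all others for Ikzf1, and a WT point at 6.01 lies far below the others for Mecom.

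The fifth group holds surface proteins used to sort stem and progenitor cells. Cd34, a sialomucin of progenitors, read 6.31, 9.51 and 8.37 in Eed-null, 8.54, 9.02, 8.29 and 8.33 in Ezh2-null and 8.69, 7.61 and 9.49 in WT leukaemias. The groups overlapped, and Eed-null replicate 1 was 2.06 below the nearest of its group (4.2-fold). The differences from WT were -0.53 (SE 0.70) for Eed-null and -0.05 (SE 0.65) for Ezh2-null. Without Eed-null replicate 1 the Eed-null difference was 0.34. Ly6a, which encodes the stem cell antigen Sca-1, read 9.16, 9.36 and 8.49 in Eed-null, 9.41, 9.28, 8.95 and 9.12 in Ezh2-null and 9.30, 9.27 and 8.22 in WT leukaemias, with groups that overlapped and differences from WT of 0.07 and 0.26 for Eed-null and Ezh2-null. Without WT replicate 3 the Ly6a differences were -0.28 and -0.10. In bulk samples such as these, fewer cells of a type and less RNA per cell cannot be told apart.

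Cd48, a SLAM family protein that is present on committed progenitors and missing from the most primitive stem cells, read 8.43, 10.50 and 10.43 in Eed-null, 11.22, 10.46, 10.26 and 10.14 in Ezh2-null and 11.00, 11.37 and 10.89 in WT leukaemias. All Eed-null values lay below all WT values, and Eed-null replicate 1 was 2.01 below the others of its group (4.0-fold). The Eed-null difference from WT was -1.30 (SE 0.50), or 2.46-fold lower (limma adjusted p = 0.41), and without Eed-null replicate 1 it was -0.62. Monocytes carry Cd48 too. The monocyte and macrophage list had a mean of 8.11 to 9.11 in Eed-null, 8.78 to 9.41 in Ezh2-null and 8.91 to 9.59 in WT leukaemias, with lower means in Eed-null than in WT for 14 of 17 genes. Of that list 4 of 17 genes lay below the array median on every array, and its part in the Cd48 values was not tested. Cd27, a TNF receptor family member found on progenitors, read 5.35, 7.82 and 9.22 in Eed-null, 8.11, 8.45, 8.82 and 7.66 in Ezh2-null and 8.60, 7.40 and 7.95 in WT leukaemias. Eed-null alone spanned from below to above all other arrays, and without its replicate 1 its difference from Ezh2-null, -0.79 (SE 0.72) with all arrays, was 0.26. Slamf1, the positive SLAM marker of stem cells, stayed between 5.77 and 6.14 on all arrays, below the array median throughout. Esam, an adhesion molecule shared by stem cells and endothelium, lay at 6.71 to 7.13 and was also below it on every array.

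Fgd5, whose locus is used as a reporter for stem cells, was dim throughout and read 4.46, 4.14 and 4.44 in Eed-null, 4.49, 4.55, 4.36 and 4.39 in Ezh2-null and 4.46, 4.63 and 4.52 in WT leukaemias. The Eed-null values were at or below the lowest WT value, with a difference of -0.19 (SE 0.11), and the Eed-null and Ezh2-null values overlapped. All values lay under an intensity of 32.

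Of the 32 genes, 8 lay below the array median on all 10 arrays, namely Slamf1, Tal1, Fgd5, Robo4, Ptk7, Esam, Tie1 and Tek. Another 14 lay above it on all 10, among them Lmo2, Mycn, Erg, Lyl1, Fli1, Etv6 and Ikzf1. The spread within groups was wider than usual for part of the set: 8 of 32 genes had a pooled SD over 0.5 (25.0%, against 11.9% of all genes), and the median pooled SD was 0.26, beside 0.23 for all genes.

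Much of that spread sat in 2 arrays. In Eed-null replicate 1, 6 of the 32 genes (Angpt1, Cd27, Cd34, Cd48, Gata2 and Sox4) lay more than 1 below both other Eed-null arrays and none lay more than 1 above (18.8%, against 4.78% of all genes in either direction). In WT replicate 3, 5 genes lay more than 1 away from both other WT arrays (15.6%, against 3.36%). Angpt1 and Gata2 were above and Bcl11a, Ly6a and Mecom below. No other array had more than 1 such gene. These arrays also differed in maturation markers. The mean of the granulocyte list was 10.82 in WT replicate 3 and 12.01 and 12.10 in the other WT leukaemias. Most genes of that list were lowest of the WT arrays there. Elane, Prtn3 and Ctsg were instead highest there, at 12.31, 11.52 and 12.98. In Eed-null replicate 1 these 3 genes were lowest of their group, at 10.61, 10.58 and 10.95. The mean of the monocyte and macrophage list was 8.11 in Eed-null replicate 1 and 9.11 and 8.78 in the other Eed-null leukaemias. Their part in the results was not tested. Without both arrays, an alternative chosen after the data were seen, Gata2 passed the test between Eed-null and Ezh2-null at 1.77 (limma adjusted p = 0.0349). Without Eed-null replicate 1 alone its adjusted p was 0.287, and over all alternatives tried it ranged from 0.0349 to 0.681.

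Kit and Gata2 are also high in mast cells. Of 8 mast cell and basophil genes, 6 lay below the array median on every array. Mcpt8 lay above it on every array (7.69 to 8.59). The mean of that list was 6.25 to 6.34 in Eed-null, 6.18 to 6.33 in Ezh2-null and 6.20 to 6.41 in WT leukaemias. Cpa3, a mast cell protease, read 6.25, 7.04 and 5.89 in Eed-null, 6.53, 6.93, 6.40 and 6.25 in Ezh2-null and 6.61, 6.47 and 7.93 in WT leukaemias. No other gene of that list was highest in WT replicate 3 among the WT arrays. Il1rl1 was lowest there, at 5.70, 5.67 and 4.84 in the WT leukaemias. The part of mast cells in the Kit and Gata2 values was not tested.

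A separate list of 40 other stem and progenitor genes was read from the same fit for context. None was called in any comparison, and at an unadjusted p under 0.05 there were 6 higher and 1 lower in Eed-null against WT (17.5%, against 10.4% of all genes). There were 2 higher and 3 lower in Ezh2-null against WT (12.5%, against 3.74%), and 4 higher and 2 lower in Eed-null against Ezh2-null (15.0%, against 9.18%). Foxo3, a factor that protects stem cell quiescence, read 11.26, 10.87 and 10.86 in Eed-null, 10.46, 10.05, 10.10 and 10.26 in Ezh2-null and 10.63, 10.75 and 10.59 in WT leukaemias. All Eed-null values lay above all Ezh2-null values, with a difference of means of 0.78 (SE 0.16, limma adjusted p = 0.193). Cd38, a marker that mouse stem cells carry, was higher in every Eed-null leukaemia than in any other and differed from WT by 0.88 (SE 0.23, limma adjusted p = 0.241). It was dim, below the array median on every array, with nearest values of 5.58 in Eed-null replicate 1 and 5.49 in Ezh2-null replicate 4. Cited2, a coactivator-binding protein needed by stem cells, exceeded WT in Ezh2-null by 0.75 (SE 0.17, limma adjusted p = 0.93). It exceeded WT in Eed-null too, by 0.54 (SE 0.18, limma adjusted p = 0.352), with every Eed-null value above every WT value.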

How the data were processed

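RNA of 10 sorted leukaemia samples was amplified, labelled with biotin and hybridised to expression arrays, per the labels' protocols. The deposited intensity values are RMA summaries, per the submitters' processing notes, which name no version. They run linearly from 6.88 to 37712.6. For this work they were floored at 1 and converted to log2. The authors also deposited a ComBat-adjusted intensity table of the WT and Ezh2-null arrays, so named in its file header, which served only as an alternative. Its 16 values below 0 were set to the floor, and its 9 columns of other samples were not used. Each array matched its own column there at correlations from 0.993 to 0.995, and other arrays correlated at 0.984 or less. Of 45101 probe sets, 37762 named 1 gene, and symbols were brought up to date through a RefSeq gene table of GRCm38.p6 (31088 current, 3656 updated, 3018 kept as given). For the 9541 genes with several probe sets the one with the highest mean was kept, leaving 20564 genes.

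All 10 arrays entered 1 fit in limma 3.58.1 under R 4.3.3 (a coefficient for each genotype, two-sided tests, eBayes with its trend option). Benjamini-Hochberg adjustment ran over all 20564 genes, and an adjusted p under 0.05 was called. SE is limma's moderated standard error. The fit was tested on simulated data. The number of arrays limits the precision. The genes, their roles and the lists were chosen with earlier results of these data known. Values in every array were given for genes called or at an unadjusted p under 0.05 in any comparison, for the gene with the largest difference of each role in each comparison, and for Kit, Cd34, Ly6a, Gata2, Mecom and Erg. At most 3 genes of another list were named per comparison, from the 3 with the smallest p. Ms4a1, Cd3e, Cdh5 and Kdr, as defining markers, were added after their values were seen. So were Cd79b, Pax5, Nkg7, Pecam1 and Pdgfrb, as the genes of the same lists above the array median on every array. Mcpt8 was likewise added from the mast cell and basophil list. Elane, Prtn3 and Ctsg were likewise added because they went against the mean of the granulocyte list in WT replicate 3. Some genes picked by these rules are not reported here. Those lists held 40 other stem and progenitor genes and markers of granulocytes, monocytes and macrophages, erythroid cells, megakaryocytes, mast cells and basophils, endothelium and stroma, B cells, T and NK cells, the cell cycle and the MLL-AF9 programme. Alternatives were other probe set rules, quantile normalisation, a floor of 32, leaving out the dimmest 40% of genes, only the groups compared, the replicate number as a block, eBayes without trend, the granulocyte level as covariate, the ComBat table and each array left out.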

Additional observations from a re-analysis of the deposited data

Results flagged for a closer look

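For 5 of the 32 genes, 1 of the 4 Ezh2-null arrays stood apart by a gap to the nearest array above Dixon's critical value. It was not the same array for all 5 genes, and the share over all genes was not worked out. Chance gives such a gap in about 1 in 20 groups, and the groups of 3 arrays were not examined in this way. In Ezh2-null replicate 1, Fli1 was lowest of its group at 11.03, Gfi1b lowest at 6.36, Tie1 lowest at 5.04 and Etv6 highest at 11.28. In Ezh2-null replicate 2, Prdm16 was lowest of its group at 7.54. The gaps were 0.886 of the range for Fli1 and for Tie1, 0.911 for Gfi1b, 0.86 for Etv6 and 0.868 for Prdm16.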

How the results depend on the processing

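No stem or progenitor gene was called under any alternative but 1, and the count was 0 to 0 in all comparisons with each array left out in turn. The exception was chosen after the data were seen. Without WT replicate 3 and Eed-null replicate 1 together, 1 gene, Gata2, passed between Eed-null and Ezh2-null at 1.77 (limma adjusted p = 0.0349). The arrays had been chosen because they stood apart, in part by their Gata2 values. Among 729 alternative values of 36 results on named genes, 684 kept their sign and side of the threshold, 44 turned sign and 1 passed only there. The number of all genes called was less stable. Eed-null against WT gave 27, and 12 with a floor of 32, 1 with only the groups compared, 16 with the replicate block and 12 to 42 with an array left out. Ezh2-null against WT gave 5, and 2 with quantile normalisation, 1 with a floor of 32, 0 with the replicate block, 3 without trend, 3 with the granulocyte covariate and 0 to 4 with an array left out. At an unadjusted p under 0.05 the block left 655 genes there. Eed-null against Ezh2-null gave 16, and 28 with the mean of all probe sets, 4 with the block, 26 with the covariate, 44 without both arrays and 13 to 36 with an array left out. Deviations of same-numbered arrays from their group means correlated between -0.233 and 0.361 and exceeded 0.1 in 2 of 9 pairs. With so few arrays per group, such correlations cannot exclude shared donors or colonies. The median difference of the 32 genes for Eed-null against WT, 0.163, was 0.10 when all probe sets of a gene were averaged and 0.134 to 0.224 with an array left out. For Eed-null against Ezh2-null, 0.116, it was 0.165 without both arrays and 0.092 to 0.166 with an array left out, and for Ezh2-null against WT -0.003 to 0.029.

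Differences that turned sign were mostly small. In Ezh2-null against WT, the block gave Cd34 0.02 and Kit 0.076. The covariate gave Cd34 0.66, Kit 0.078, Ly6a -0.075 and Mecom -0.59. Leaving out both arrays gave Cd34 0.40, Erg 0.049, Kit 0.03, Ly6a -0.10 and Mecom -0.40. Other probe sets gave Bcl11a -0.026, Mecom -0.044 and -0.002, and Sox4 -0.034 in its dimmest, beside 1.82 in another. In Eed-null against WT, the covariate gave Cd34 0.053 and Ly6a -0.20, and leaving out both arrays gave Cd34 0.79 and Ly6a -0.36. Erg was -0.028 when probe sets were averaged and -0.35 in its second probe set, and Kit was -0.012 in its second. In Eed-null against Ezh2-null, Cd27 was 0.26 and Cd34 0.40 without both arrays, Erg -0.04 and Mycn 0.063 in another probe set. With an array left out, Ezh2-null against WT ranged over -0.55 to 0.40 for Cd34, -0.34 to 0.12 for Erg, -0.11 to 0.076 for Kit, -0.10 to 0.44 for Ly6a and -0.40 to 1.72 for Mecom. Eed-null against WT ranged over -1.26 to 0.34 for Cd34, -0.28 to 0.33 for Ly6a, 0.10 to 2.23 for Mecom and -1.66 to -0.62 for Cd48. Eed-null against Ezh2-null ranged over -1.67 to 0.26 for Cd27, -1.20 to 0.40 for Cd34, -0.15 to 0.003 for Fgd5 and -0.36 to 0.071 for Ly6a. The cause was not tested. With a floor of 32 Fgd5 lay at the floor on all arrays and has no value.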

Other observations

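The marker lists of myeloid maturation and of the cell cycle gave the following values. No gene of these lists was called by limma in any comparison. Of 16 cell cycle genes, 16 had lower means in Eed-null than in WT, 7 of them at an unadjusted p under 0.05 (43.8%, against 10.4% of all genes), and the median difference was -0.40. Of all genes 54.8% had higher means in Eed-null than in WT. The mean of that list was 9.39 to 10.24 in Eed-null, 10.03 to 10.50 in Ezh2-null and 10.12 to 10.62 in WT leukaemias. Of 17 monocyte and macrophage genes, 14 had lower means in Eed-null than in WT, and 3 did so at an unadjusted p under 0.05 (17.6%, against 10.4% of all genes). Ccr2, a chemokine receptor of monocytes, differed by -3.03 (SE 0.74) between Eed-null and WT (limma adjusted p = 0.208). Of 22 granulocyte genes, 18 had higher means in Eed-null than in WT and 21 in Ezh2-null than in WT, with WT replicate 3 the lowest array by its list mean. Of all genes 44.7% had higher means in Ezh2-null than in WT. At an unadjusted p under 0.05 there was 1 of 22 in Eed-null against WT (4.55%, against 10.4% of all genes). There were 2 of 22 in Ezh2-null against WT (9.09%, against 3.74%), both higher in Ezh2-null.

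Of 12 genes of the MLL-AF9 programme, 11 lay above the array median on every array, and 2 were lower in Eed-null than in WT at an unadjusted p under 0.05 (16.7%, against 10.4% of all genes). These were Eya1, at -0.92, and Cdk6, at -0.50 (limma adjusted p = 0.318 and 0.396). Hoxa9, a homeobox gene that MLL fusions keep active, read 11.14, 11.82 and 11.26 in Eed-null, 12.19, 12.03, 11.66 and 11.11 in Ezh2-null and 11.94, 11.66 and 12.06 in WT leukaemias, and the groups overlapped. Among markers of other lineages, the numbers at an unadjusted p under 0.05 in Eed-null against WT were 0 of 11 erythroid, 1 of 9 megakaryocyte, 0 of 8 mast cell and basophil, 2 of 14 endothelial and stromal, 1 of 9 B cell and 1 of 10 T and NK cell genes. These are shares of 0 to 14.3%, against 10.4% of all genes. Vwf is on both the megakaryocyte and the endothelial and stromal lists and was counted in each. In Ezh2-null against WT the numbers were 0, 0, 0, 1, 0 and 1 in the same order (7.14% of the endothelial and stromal genes, against 3.74% of all genes).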
